A study of Mus musculus with 45 samples.

Results

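Transcript levels of cortical cells taken from mouse embryos at E14.5 (E for embryonic day) were followed over a 12 h chase. The genes described are those with more than 500 covered Ts (T positions under aligned reads, summed per gene) in each of 6 libraries, the 3 of 0 h and the 3 of 12 h. They number 12919 of 53491 listed genes (24.2%), of which 11216 are annotated as protein-coding, 1324 as pseudogenes and 282 as lncRNA, and 91 carry no annotation here. The study labelled RNA with 4-thiouridine (4sU), a uridine analogue, to follow RNA decay in cortical cells of 3 stages, the others being E11.5 and E16.5. The same libraries also hold the total level of each gene, and whether that level moved during the chase is the question here.

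All cells were wild type. Each replicate was a pool of cortices from 2 embryos at E14.5, as at E16.5, and from 7 at E11.5, and there were 3 pools, A, B and C, at each stage. After trypsin dissociation a pool was divided over 5 wells coated with poly-D-lysine, in DMEM with N-acetyl-L-cysteine, N2, B27 without vitamin A and mouse bFGF at 10 ng/mL. The cells attached for 2 h and received 100 uM 4sU for 20 h, with 4sU medium last renewed 1 h before the chase. Uridine at 5 mM was added at 0 h, and 1 well of each pool was lysed at 0, 2, 4, 8 and 12 h. Cells of all times, 0 h included, had thus been labelled, and a culture without 4sU or without uridine was not analysed here. Time in culture, time since uridine and time since the last medium change therefore cannot be told apart. The pools are separate sets of embryos, whereas the wells of a pool share their cells.

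The cortex at this age is built by radial glia, dividing progenitors that line the ventricle and produce neurons either directly or through intermediate progenitors. Later the same lineage turns to glia, and precursors of oligodendrocytes, which carry the PDGF receptor Pdgfra and the proteoglycan Cspg4, appear in the forebrain. Cells placed in culture lose the tissue around them and receive growth factors from the medium, and genes of the cell cycle, of lipid synthesis and of the response to stimuli are known to respond to such conditions.

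The 15 libraries at E14.5 held 229 to 629 M covered Ts, or 15.9 to 43.9 M reads. Markers of the labelled tissue were present. The summed level of 10 radial glia markers was 4078 to 4717 cpm (reads scaled to a fixed library total) at 0 h and 4295 to 4932 at 12 h, and that of 8 projection neuron markers was 4102 to 4621 and 3984 to 4581. Markers of 13 interneuron genes summed to 192 to 218 cpm at 0 h and 168 to 229 at 12 h. Microglia markers summed to 12.1 to 15.4 and 11.3 to 16.2 cpm, with Pf4 at 0 in all 6 end libraries, and 10 of 11 endothelial markers and all 5 choroid plexus markers were under 1 cpm in each of them. Gm42418, a locus that overlaps ribosomal RNA, took more than 1% of reads in 3 libraries (2 h of pools A and B, 8 h of pool C) and 0.246% to 0.348% in the end libraries. In bulk samples, fewer cells of a type and less RNA per cell cannot be told apart.

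Over 12 h, 2168 genes rose and 2280 fell, which is 16.8% and 17.6% of the genes tested and 34.4% together (edgeR's quasi-likelihood test, Benjamini-Hochberg adjusted p under 0.05). The remaining 8471 genes did not pass. The 12 h counts given below for gene lists are to be read against these shares. Most changes were small. The median change over all genes was 0.00 on the log2 scale, and 50 genes rose (0.387%) and 52 fell (0.403%) by more than 2-fold, of which 101 of 102 moved the same way in all 3 pools. Of the 1324 pseudogenes tested, 59 rose and 156 fell. Without pool B, 1282 genes rose and 1379 fell, and without pool A 1414 rose. Without the 3 libraries rich in Gm42418, 2339 rose and 2446 fell.

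The largest rises were led by genes of oligodendrocyte precursors. Pdgfra (chr5:75152292-75198215), the receptor for platelet-derived growth factor A, stood at 1.17, 1.68 and 1.42 cpm in pools A, B and C at 0 h and at 13.5, 13.2 and 10.6 cpm at 12 h. All 12 h values lay above all 0 h values, and the gene rose by 3.24 on the log2 scale (SE 0.17, adjusted p = 2.67e-09). It climbed at every time, with log2 changes of 0.51 at 2 h, 1.13 at 4 h and 2.24 at 8 h. Cspg4 (chr9:56865033-56899870), known as NG2, went from 3.33, 4.88 and 2.28 cpm to 13.1, 17.7 and 11.3 cpm. The groups did not overlap, and the log2 change was 2.08 (SE 0.12, adjusted p = 9.37e-09). Egfr (chr11:16752203-16918158), the receptor for epidermal growth factor, went from 26.6, 32.4 and 31.0 cpm to 120.1, 136 and 115 cpm, a log2 change of 2.05 (SE 0.08, adjusted p = 1.09e-10). Pool B was highest at both times for Cspg4 and Egfr, and the groups were again separate.

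Other large rises included Smoc1 (log2 1.94), which encodes a secreted calcium-binding protein, the adaptor gene Shc4 (1.88), Ampd3 (1.94), an AMP deaminase, Cbr3 (1.68), a carbonyl reductase, and Dmrta1 (1.60), a transcription factor of dorsal progenitors. Cnp, a myelin enzyme of oligodendrocytes, rose from 13.4, 11.7 and 11.6 cpm to 40.3, 42.2 and 34.9 cpm. Apoe, the lipid carrier of glia, rose from 9.40, 10.2 and 12.5 cpm to 28.4, 28.9 and 34.7 cpm. Neither gene's groups overlapped, and the log2 changes were 1.68 for Cnp and 1.48 for Apoe. Shc4, Ampd3 and Cnp share exons with genes on the other strand, whose reads could not be separated here. Mfge8, a secreted protein made by radial glia, stood at 184, 186 and 191 cpm at 0 h and at 498, 504 and 509 cpm at 12 h. Its rise of 1.41 (SE 0.04, adjusted p = 1.43e-11) was already 0.39 at 2 h.

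**Figure D1:**
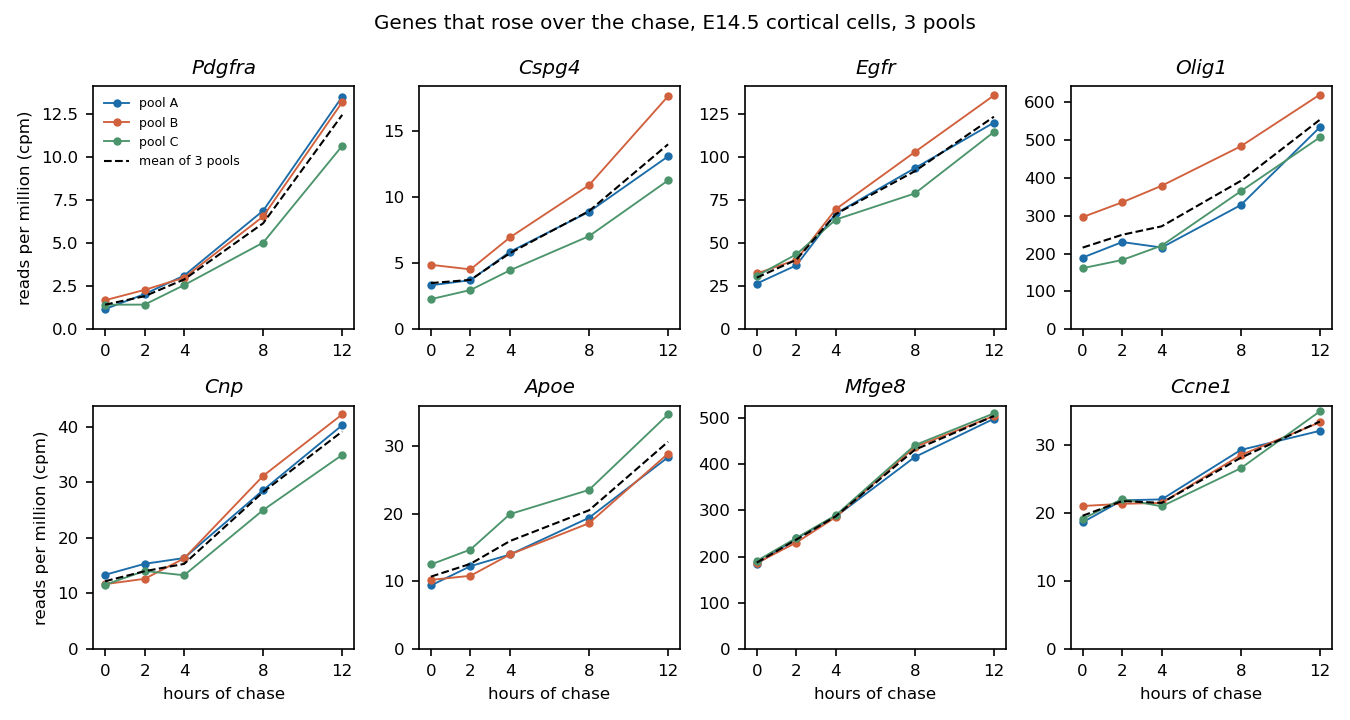
Level (cpm, linear axes from 0) against hours of chase for 8 genes that rose, with a line for each pool and a dashed line for the mean of 3 pools. Pdgfra climbs at every time to 10.6 to 13.5 cpm, whereas Ccne1 stays near its 0 h level until 4 h and is higher at 8 and 12 h.

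Of 21 listed glial genes, 17 were members, 12 rose and 2 fell, with a median log2 change of 0.56 against 0.00 for all genes. The transcription factor Olig1 rose from 189, 296 and 161 cpm to 533, 619 and 507 cpm, and its neighbour Olig2 rose from 115, 177 and 125 cpm to 246, 279.8 and 226 cpm. For both, the 12 h values lay above all 0 h values, with log2 changes of 1.39 and 0.85. The genes that fell were Nfia (-0.34), a factor of the switch to gliogenesis, and Gja1 (-0.26), the gap junction protein of astrocytes. Leaving out any 1 pool left 11 or 12 rises, and without pool B 1 fell.

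Some genes, glial ones among them, were too low at 0 h to be members. Of the genes left out, 53 exceeded 500 covered Ts in all 3 libraries at 12 h but not at 0 h, and 741 the reverse. The 12 h library of pool A was shallower than that of 0 h (270.9 against 621 M covered Ts), and 504 of the 741 missed the threshold in that library alone. By mean cpm, 134 of the 741 were higher at 12 h and 90 were more than 2-fold lower. Sox10, the oligodendrocyte lineage factor, stood at 0.0849, 0.066 and 0.0805 cpm at 0 h and at 2.30, 2.00 and 1.75 cpm at 12 h. Bcas1, a gene of early myelinating cells, went from 1.51, 1.42 and 1.23 cpm to 5.18, 6.82 and 5.17 cpm, and Gsx2, a progenitor factor of the ventral forebrain, from 0.807, 0.495 and 0.376 cpm to 3.79, 3.22 and 2.37 cpm. These genes were not tested, and the Sox10 values at 0 h rest on 4, 2 and 3 reads. They come from the 53 genes that passed the threshold at 12 h only, of which 52 had a higher mean cpm at 12 h. That choice favours rises, so these are not separate results. At the threshold itself, Csf2ra and Gm7512 were inside with 501 covered Ts in their lowest library, and Stac2 and Gm20939 outside with 500.

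Radial glia genes, taken as a full list, rose more often than they fell. Of 24, 12 rose and 5 fell, with a median of 0.16. The 10 of them that served as markers above gave 4 rises and 3 falls, with a median of 0.09. Ptprz1, a receptor phosphatase of radial glia, rose from 605, 624 and 748 cpm to 935, 1078 and 1026 cpm (log2 0.60), Sox9 by 0.54 and Fabp7 by 0.49. Pax6, the factor of dorsal progenitors, fell from 50.7, 47.7 and 49.0 cpm to 44.8, 37.7 and 38.0 cpm (log2 -0.29, adjusted p = 0.00122). The effectors of Notch signalling moved apart, with Hes5 rising by 0.51 and Hes1 falling by 0.45. Sox2 did not pass, at 0.13 (SE 0.05, adjusted p = 0.0829).

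Intermediate progenitor genes gave 2 rises and 3 falls of 12 tested, and 1 fall without pool A or B. Eomes, which marks these cells, fell from 39.2, 36.3 and 31.7 cpm to 26.6, 24.4 and 20.5 cpm (log2 -0.60, adjusted p = 2.09e-06), with no overlap between the groups. Dll3, a Notch ligand family member, rose by 0.73 and Neurod1, a neurogenic factor, by 0.35. Neurog2, which starts neurogenesis, had a change of -0.09 (adjusted p = 0.259). Of 20 neuronal identity factors, 1 rose and 7 fell, with a median of -0.12, and without pool B 0 rose and 4 fell. Tbr1, a factor of deep layers, fell by 0.22 and Tle4 by 0.39. Neurod2 had a change of -0.13 (adjusted p = 0.175). The neuronal microtubule genes Dcx and Tubb3 had changes of 0.06 and 0.07, and neither passed. Of 39 synaptic genes, 10 rose and 5 fell, led by Rims1, a scaffold of the release site (log2 1.13, adjusted p = 5.61e-07), whereas without pool A 6 rose and without pool B 3 fell. Of 25 genes of the neuronal cytoskeleton and adhesion, 6 rose and 3 fell, and without pool A 2 rose. Over all genes 34.4% passed in either direction, and the synaptic and cytoskeleton lists were each near that share. The lists that the study took from single-cell data of cortex, not from these libraries, gave 7 rises and 23 falls of 56 progenitor genes and 4 rises and 9 falls of 57 neuron genes. The progenitor list shares Ccna2, Ccnb1, Birc5, Cdca8, Smc2 and Smc4 with the mitosis list described below, so the 2 lists are not independent. Without pool A or B 4 progenitor genes rose, and without pool B 1 neuron gene rose and 5 fell, with 0 rises without pool A.

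Genes of mitosis fell together, and genes of DNA replication did not. Of 48 mitosis genes, 41 fell and 0 rose, all 48 had a negative log2 change, and the median was -0.39. Ube2c, which delivers ubiquitin for the exit from mitosis, fell from 152, 147 and 137 cpm to 81.9, 75.5 and 82.7 cpm. The groups were separate and the log2 change was -0.89 (SE 0.06, adjusted p = 2.34e-08). Ccnb1, cyclin B1, fell from 59.6, 57.8 and 64.2 cpm to 32.3, 33.5 and 40.6 cpm (log2 -0.77), Cenpa, the centromeric histone, by 0.84 and Kif23, a motor of cytokinesis, by 0.70. Mki67, the proliferation marker, had a change of -0.41 but did not pass (SE 0.16, adjusted p = 0.0608), and its values of 146, 173 and 189.6 cpm at 0 h and 124, 146 and 114 cpm at 12 h overlapped. Leaving out 1 pool left 36 to 42 falls.

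Of 48 DNA replication genes, 18 rose and 3 fell, with a median of 0.13. Ccne1, cyclin E1, which drives entry into S phase, rose from 18.7, 21.1 and 19.2 cpm to 32.1, 33.4 and 35.0 cpm (log2 0.77, adjusted p = 2.78e-07). Ccne2 rose by 0.75, the licensing factor Cdc6 by 0.62 and E2f2 by 0.52. Gins1, part of the replicative helicase, fell by 0.50. At 12 h, 7 genes rose without pool B and 11 without pool A, with 1 fall in each case. At 4 h the list had 0 rises and 19 falls, but 6 falls without pool B and 10 without pool A. Over all genes, 14.9% rose and 14.3% fell at 4 h with all pools.

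Promoters of the mitosis genes held a shared sequence. The cell cycle homology region (CHR, letters TTTGAA on either strand) is known from genes expressed late in the cell cycle. It was found in 31 of 40 mitosis genes with a promoter window (77.5%), against 20.2% of all 27025 genes and 13.8% of the tested genes that have one. The median log2 change was -0.40 for mitosis genes with it and -0.41 for those without it. The windows are those of RefSeq on GRCm38.p6 and run from 250 bases before to 50 after the start. The 150 bases before the start are shown for 2 of these genes, Cdc20 (chr4:118437344-118437493, minus strand), an activator of the anaphase-promoting complex that fell by 0.57, and Cdk1 (chr10:69352913-69353062, minus strand), the mitotic kinase, which fell by 0.49. Capitals mark the CHR.
Cdc20: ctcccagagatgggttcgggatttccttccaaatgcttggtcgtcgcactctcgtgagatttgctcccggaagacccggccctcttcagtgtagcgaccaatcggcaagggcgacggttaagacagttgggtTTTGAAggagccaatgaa
Cdk1: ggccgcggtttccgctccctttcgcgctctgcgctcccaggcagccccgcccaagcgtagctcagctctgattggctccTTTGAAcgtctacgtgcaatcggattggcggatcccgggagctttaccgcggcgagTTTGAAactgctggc

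Cholesterol synthesis fell almost as a whole. Of 25 genes, 23 fell and 0 rose, with a median of -0.39, and leaving out 1 pool left 20 or 21 falls. Lss, which closes the sterol rings, fell from 392, 432 and 416 cpm to 206, 245 and 231 cpm. The groups were far apart relative to the spread of the pools, with a log2 change of -0.89 (SE 0.04, adjusted p = 4.78e-10). Insig1, which holds the sterol sensor in the ER, fell from 267, 273 and 257 cpm to 139.7, 152 and 151 cpm (log2 -0.88), with no overlap, and Idi1, an isomerase of the pathway, fell by 0.69. At 2 h, by contrast, 9 of the 25 had risen and 0 had fallen (median 0.11), against 4.88% and 7.39% of all genes. Of the 25, 5 had risen without pool A, without pool B or without the libraries rich in Gm42418. The sterol element (TCACNCCAC) was in 1 of 17 genes of the list with a promoter window, against 1.37% of tested genes. A CCAAT box was in 16 of 17, against 43.7%.

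**Figure D2:**
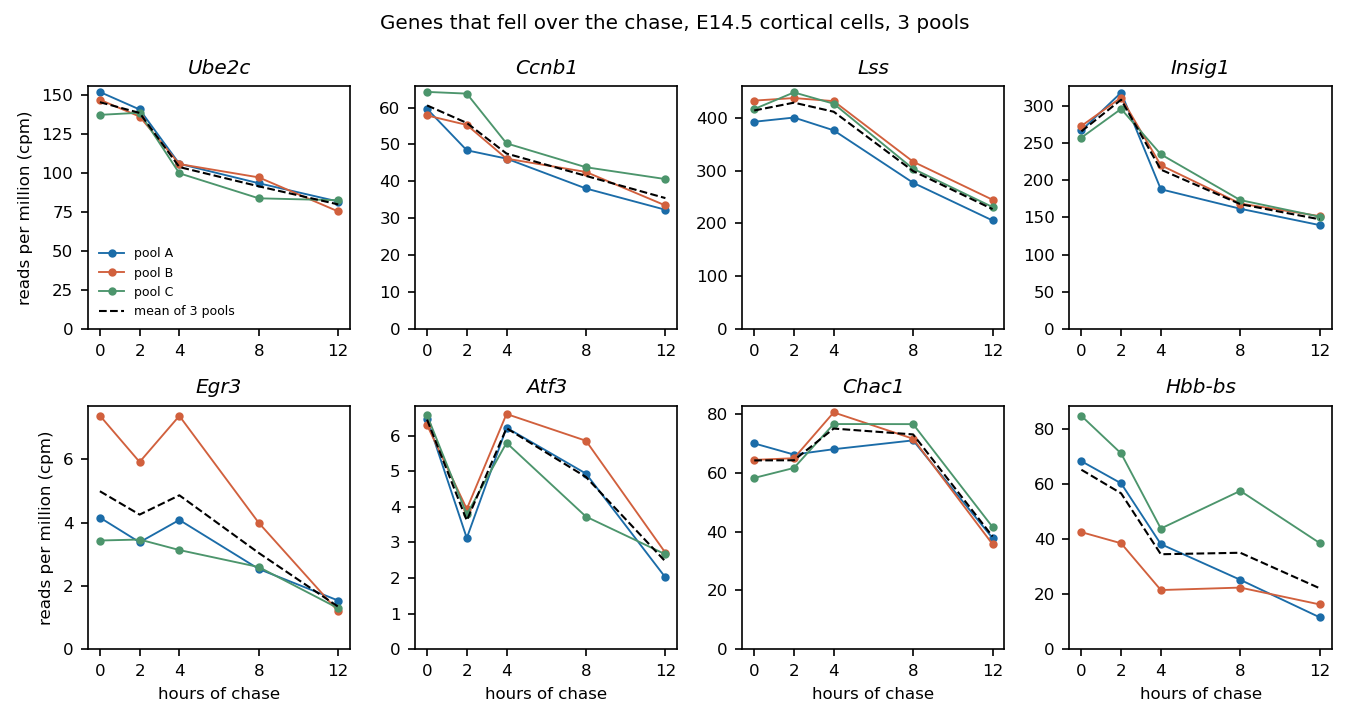
Level (cpm, linear axes from 0) against hours of chase for 8 genes that fell, with a line for each pool and a dashed line for the mean of 3 pools. Lss and Insig1 are lower at 8 and 12 h than at the earlier times, and Chac1 drops between 8 and 12 h, to 35.7 to 41.6 cpm.

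Genes of the integrated stress response, which act when translation initiation is held back, moved both ways before they fell. Of 30, 5 had fallen at 2 h, 10 had fallen and 9 risen at 4 h, 1 had fallen and 8 risen at 8 h, and 24 fell and 0 rose at 12 h, with a median of -0.24. Without pool B, 6 fell and 4 rose at 4 h and 5 rose at 8 h. Over all genes, 7.39% had fallen at 2 h, 14.3% at 4 h and 12.0% at 8 h, and 14.9% had risen at 4 h and 11.4% at 8 h. Chac1, which degrades glutathione, stood at 70.1, 64.4 and 58.3 cpm at 0 h, at 71.1, 71.6 and 76.6 cpm at 8 h and at 37.8, 35.7 and 41.6 cpm at 12 h. Its 12 h values lay below all others, with a log2 change of -0.75 (SE 0.09, adjusted p = 1.15e-05). Stc2, a secreted glycoprotein, fell by 0.69, Ppp1r15a, which restores translation, by 0.69 and Sesn2, a sensor of leucine, by 0.58. Without pool B, 15 of the 30 fell. The ATF4 element (TGATGNAA, either strand) was in 8 of the 25 genes of this list with a promoter window (32%). The shares were 2.57% of tested genes and 4.51% of all genes with a window. The list was made of targets and regulators of ATF4, so a high share in it is not a separate result. The median log2 change was -0.27 for genes of the list with the element and -0.23 for those without it. The stretch before the start is shown for Gars (chr6:55037851-55038000, plus strand), a tRNA ligase that fell by 0.31, and Slc7a11 (chr3:50443614-50443763, minus strand), the cystine transporter, which fell by 0.27. Capitals mark the element, which occurs at 2 places in Slc7a11.
Gars: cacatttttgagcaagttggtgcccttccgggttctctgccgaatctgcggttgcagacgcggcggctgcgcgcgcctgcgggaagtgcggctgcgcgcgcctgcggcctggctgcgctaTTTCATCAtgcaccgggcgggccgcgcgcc
Slc7a11: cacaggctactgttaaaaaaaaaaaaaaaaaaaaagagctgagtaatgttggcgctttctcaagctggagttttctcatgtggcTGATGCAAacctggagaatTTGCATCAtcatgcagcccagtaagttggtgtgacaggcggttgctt

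ER chaperones fell early. Of 17, 14 fell at 4 h (median -0.38), 11 at 8 h (-0.37) and 11 at 12 h (-0.24), and without pool A 7 fell at 12 h. Over all genes, 14.3%, 12.0% and 17.6% fell at these times. The list's counts at 4 and 8 h are those with all pools. Falls at 4 h over all genes numbered 1842 with all pools and 372 without pool B. Hspa5, the main chaperone of the ER, went from 457, 492 and 525 cpm at 0 h to 296, 318 and 349 cpm at 4 h and 351, 468 and 424 cpm at 12 h. The groups were separate at 4 h (log2 -0.63) and overlapped at 12 h, where the change was -0.27 (adjusted p = 0.00129). Herpud1, of ER-associated degradation, fell by 0.66 at 12 h. The ER stress element (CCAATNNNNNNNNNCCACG, either strand) was in 7 of 15 genes with a promoter window, against 0.154% of tested genes. The list was made of targets of the unfolded protein response of the ER, so a high share in it is not a separate result. The median log2 change was -0.24 for genes of the list with the element and -0.22 for those without it.

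Immediate early genes, which cells switch on within minutes of a stimulus, fell in 14 of 24 cases and rose in 0, with a median of -0.29. Egr3 went from 4.16, 7.39 and 3.44 cpm to 1.54, 1.19 and 1.29 cpm, and Egr2 from 8.02, 10.2 and 6.98 cpm to 3.74, 2.71 and 2.66 cpm. For both, all 12 h values were below all 0 h values, with log2 changes of -1.72 and -1.46. Atf3, a stress-induced factor, had 6.47, 6.30 and 6.58 cpm at 0 h, 3.12, 3.94 and 3.79 cpm at 2 h, 6.22, 6.61 and 5.80 cpm at 4 h and 2.01, 2.71 and 2.66 cpm at 12 h. Its course was not steady, with low values at 2 h and at 12 h. Klf4 fell by 1.28. Of 15 circadian clock genes, 8 fell and 0 rose (median -0.17), led by Ciart (-1.22), a repressor of the clock, and Per2 (-0.89).

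Other large falls lay outside these lists. Glis3, a zinc finger factor, went from 7.79, 19.6 and 11.0 cpm to 2.16, 5.28 and 2.91 cpm. Pool B was highest at both times, and each pool fell (log2 -1.93, SE 0.10, adjusted p = 2.56e-09). F2rl1, a receptor cleaved by proteases, fell from 50.7, 97.4 and 71.1 cpm to 17.3, 36.6 and 25.3 cpm (log2 -1.51). Hbegf, a ligand of Egfr, fell by 1.36 and Slc14a1, a urea transporter, by 1.56. Shisa3 fell by 1.77 but overlaps exons of Atp8a1 on the other strand, and Slc16a6 (-1.44) overlaps Amz2 and Arsg. All 4 globin genes that were members fell, with a median of -1.57. Hba-a1 went from 32.5, 25.6 and 27.1 cpm to 7.15, 7.45 and 17.7 cpm, with no overlap. The size differed between pools, with medians over the 4 of -2.49 in A, -1.62 in B and -0.86 in C. These transcripts belong to red blood cells, whose 10 listed markers summed to 90.8 to 149 cpm at 0 h and 25.4 to 81.2 cpm at 12 h.

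**Figure D3:**
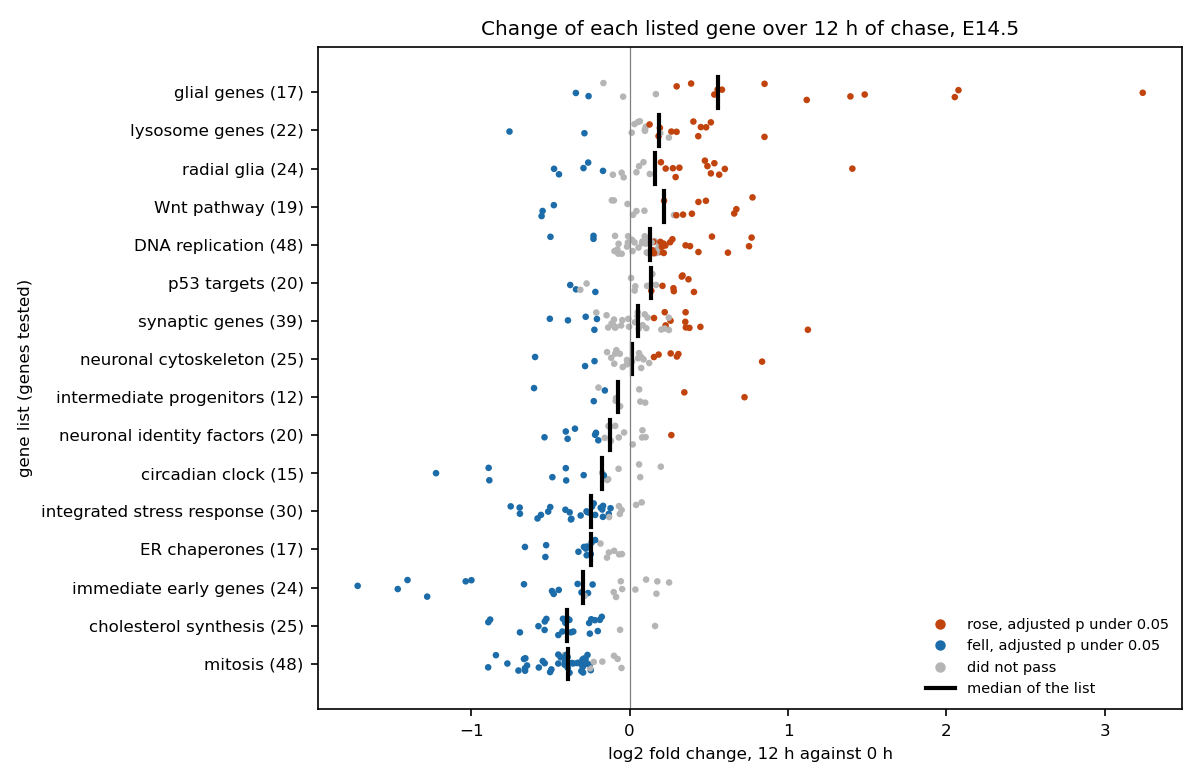
Log2 fold change from 0 h to 12 h (x axis) of each tested gene in 16 lists (y axis, number tested in brackets), coloured by whether the gene rose, fell or did not pass, with a bar at the list's median. The 48 mitosis genes all lie below 0, and glial genes reach 3.24.

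Signalling genes showed single large changes within mixed lists. Of 19 Wnt pathway genes, 9 rose and 3 fell (median 0.22), and 5 rose without pool A. The receptor Fzd9 rose by 0.78, the ligand Wnt7b by 0.67 and the feedback gene Axin2 by 0.66, whereas the nuclear factor Tcf7l2 fell by 0.56. Of 16 FGF pathway genes, 2 rose and 6 fell, whereas 1 rose and 2 fell without pool B and 1 rose and 3 fell without pool C. The FGF antagonist Il17rd went from 7.92, 7.09 and 8.83 cpm to 16.9, 18.6 and 16.1 cpm (log2 1.13), and the receptor Fgfr3 fell by 0.54. Of 19 Notch genes, 4 rose and 4 fell, among them the receptor Notch3 (0.65) and the ligand Jag1 (-0.73). Lysosome genes gave 11 rises and 2 falls of 22 (median 0.19), with the cholesterol exporter Npc1 rising by 0.85 and Wipi1 falling by 0.76. Without pool B, 6 of them rose. Of 20 p53 targets, 8 rose and 3 fell, and without pool B 2 rose.

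The changes at 2, 4 and 8 h used the same 0 h libraries. At 2 h, 631 genes rose (4.88%) and 955 fell (7.39%), at 4 h 1921 (14.9%) and 1842 (14.3%), and at 8 h 1474 (11.4%) and 1549 (12.0%). Rises were 39.8% of the calls at 2 h, and 23.7% when libraries were scaled by their size alone. Without the libraries rich in Gm42418, which leaves 1 library at 2 h, 130 genes rose and 106 fell at that time. Without pool B the counts were 67 and 107 at 2 h and 533 and 372 at 4 h. Respiratory chain and ribosomal protein genes gave more calls at 4 h than at 12 h, but few or none without pool A or B. Of 74 respiratory chain genes, 33 fell at 4 h (median -0.18), but 4 did without pool A and 0 without pool B. At 12 h 0 of them fell and 7 rose, whereas 1 rose without pool B and 4 without pool C, and 11 rose without the libraries rich in Gm42418. Of 59 ribosomal protein genes, 17 fell at 4 h, but 1 did without pool A and 0 without pool B. At 12 h 7 of them fell, and 4 without pool B.

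**Figure D4:**
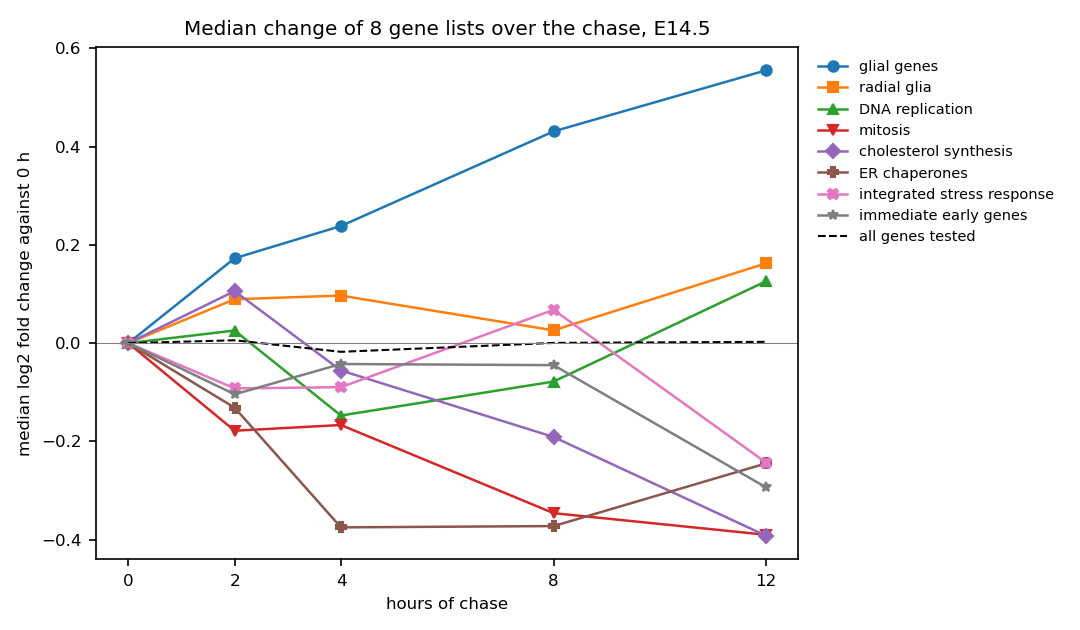
Median log2 fold change against 0 h (y axis) of 8 gene lists and of all genes tested (dashed) over hours of chase (x axis). Glial genes climb to 0.56, mitosis and cholesterol genes end at -0.39, and ER chaperones are lowest at 4 and 8 h.

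Whether the same change occurred at the other stages was tested as an interaction over 12125 genes. The 12 h change was higher at E14.5 than at E11.5 for 543 genes (4.48%) and lower for 1277 (10.5%). Against E16.5 it was higher for 248 genes (2.05%) and lower for 413 (3.41%). Leaving out 1 pool of E14.5 gave 125 to 546 genes higher than at E16.5, the lowest without A and the highest without B. The 2 comparisons share the E14.5 libraries. Gm42418 took 3.38% to 8.16% of reads in the 12 h libraries of E11.5, against 0.419% to 1.04% at 0 h of that stage, 0.312% to 0.347% at 12 h of E14.5 and 0.180% to 0.202% at 12 h of E16.5. Its part in the differences from E11.5 was not tested.

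Mitosis genes set E14.5 apart from E11.5. Their median 12 h change was -0.39 at E14.5, against 0.21 at E11.5 and -0.31 at E16.5, and 47 of 48 had a lower change here than at E11.5, whereas 1 had a lower one than at E16.5. Cholesterol genes set it apart from E16.5. Their medians were -0.48, -0.40 and 0.04 in the order of age, with 20 of 24 lower at E14.5 than at E16.5 and 4 higher than at E11.5. Of 29 stress response genes 17 were lower than at E11.5, and 11 without pool A of E14.5, and of 39 synaptic genes 25 were.

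Glial genes as a list rose at every stage, with medians of 0.52, 0.56 and 0.38 in the order of age. In the fit over stages 11, 13 and 14 of 17 rose, and 1, 2 and 2 fell. Cspg4 rose by 1.98 at E11.5, and its difference from E14.5 did not pass (0.11, adjusted p = 0.847). Pdgfra rose more at E14.5 than at E11.5 by 2.12 (SE 0.22, adjusted p = 5.34e-06) and more than at E16.5 by 2.41 (SE 0.22, adjusted p = 7.99e-06). At E16.5 it already stood at 16.8, 22.8 and 13.7 cpm at 0 h and reached 30.6, 41.0 and 23.9 cpm. The E14.5 cells started lowest of the stages, and their 12 h values stayed below all 12 h values of E16.5. At E11.5 Pdgfra went from 7.47, 5.43 and 7.88 cpm to 13.9, 17.2 and 11.1 cpm, and these 12 h values overlapped those of E14.5. Egfr rose more at E14.5 than at E16.5 by 1.63 (adjusted p = 1.27e-07), from 70.7, 83.5 and 57.0 cpm to 90.6, 101 and 84.0 cpm at E16.5. Glis3 fell more than at E16.5, by a difference of -1.56 (adjusted p = 6.73e-06).

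**Figure D5:**
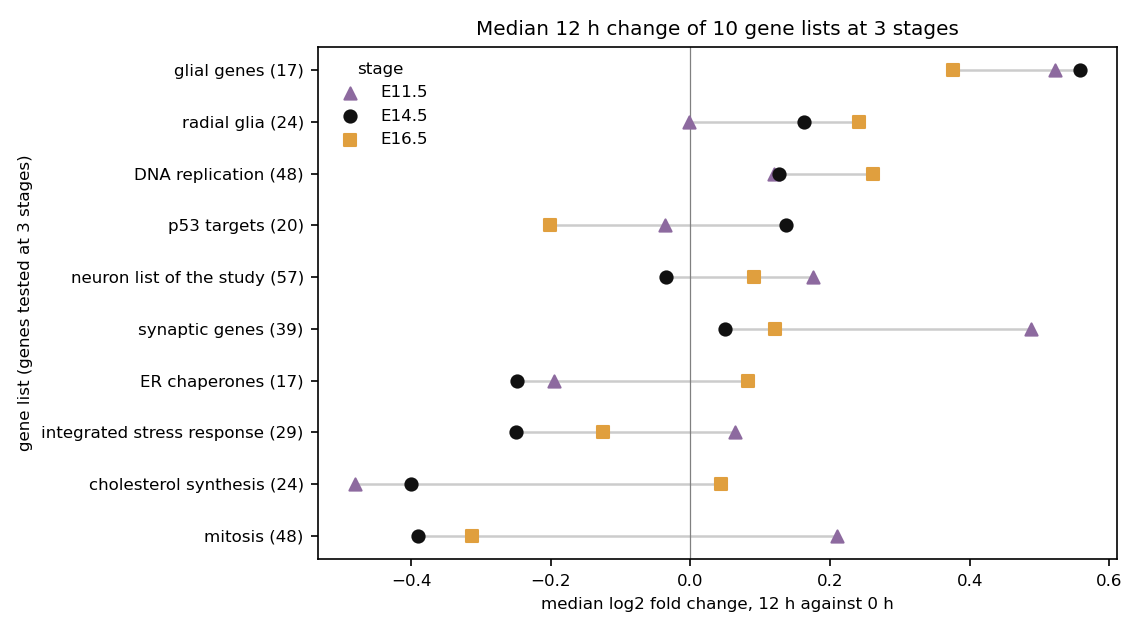
Median log2 fold change from 0 h to 12 h (x axis) of 10 gene lists (y axis, number tested at all stages in brackets) for E11.5 (triangles), E14.5 (circles) and E16.5 (squares). In the order of age, mitosis genes are at 0.21, -0.39 and -0.31 and cholesterol genes at -0.48, -0.40 and 0.04.

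The conversion rate divides converted Ts by covered Ts, so it does not follow the amount of labelled RNA alone. Half-lives of this rate, refitted from the same libraries, differed little between genes that rose and genes that fell. Their medians in pools A, B and C were 4.53, 4.51 and 4.79 h for genes that rose, 4.35, 4.35 and 4.68 h for genes that fell, and 4.58, 4.59 and 4.87 h for genes that did not pass. The lists ranged more widely. Immediate early genes had medians of 2.39, 2.39 and 2.58 h, mitosis genes 3.82, 3.84 and 4.06 h, and genes of the neuronal cytoskeleton 7.33, 7.27 and 8.32 h. Converted Ts left at 12 h, as a percentage of those at 0 h, did differ between the groups. For genes that rose, the medians in pools A, B and C were 27.54%, 24.41% and 29.27%. For genes that fell, they were 16.87%, 15.15% and 17.95%. That contrast is partly built in, since the genes were grouped by their change in covered Ts. These half-lives and percentages are descriptions, since genes are not replicates and the rates come from the libraries that gave the levels.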

How the data were processed

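SLAM-seq libraries of 15 E14.5 samples (3 pools at 5 chase times) and the 0 and 12 h libraries of E11.5 and E16.5 were used. The authors aligned reads to mm10 with SlamDunk and summed values over GENCODE exons, and what was done with multiply aligned reads is not given in the sources used here. Covered Ts were deposited as raw counts, so that a read counts once for every T it covers. Scaled read counts (CPM) were deposited over a total larger than the listed reads, and 100% of values were whole multiples of the smallest, within 0.01 reads. The authors deposited T-to-C conversion rates as fractions. Their half-life and R2 columns were not used. Columns with no sample numbered 0.

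Covered Ts were tested with edgeR 4.0.16 in R 4.3.3 (quasi-likelihood, TMM, pool as block, all 15 libraries, 8 residual degrees of freedom), with Benjamini-Hochberg adjustment over 12919 genes. Same-pool libraries deviated together in every pair (r 0.155 to 0.738, other pools -0.559 to 0.213), and the labels state that the wells of a pool share cells. Deviations were taken from the mean of the pools at each time, which pushes the values between other pools down. That contrast is thus partly built in, and the block rests on the design. The test on recovered reads called 2228 rises and 2325 falls. Stages were compared as interactions in 18 libraries with 9 pool blocks. The code was also run on simulated reads, not covered Ts, drawn independently with a fixed spread and no pool effects. There, 100% of genes changed 2-fold were recovered and 0.0708% of unchanged genes were called. These rates do not give the error rates of the real libraries. Replicate libraries differed by more than sampling noise. Counting depth limits low genes, and PCR reads are not independent molecules.

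Half-lives were fitted as exponential decay of the conversion rate relative to 0 h, and kept under 24 h with R2 over 0.6. Positions are those of GENCODE release 21 on GRCm38, and promoter windows those of RefSeq, present for 9115 tested genes. The genes described, the 34 gene lists and 9 marker lists were chosen with earlier results of these data known. Genes were named by rule: the 12 largest protein-coding rises and falls over 2-fold, up to 4 members of each list, known markers of cortical cells, and the 3 largest stage differences of each sign. Some genes the rule takes are not reported here. Olig1, Olig2, Sox10, Bcas1, Gsx2, Nfia, Gja1, Cdc20, Cdk1, Gars, Slc7a11 and Hspa5 were named after their values were seen where the rule did not take them. Alternatives were other scalings, filters, pseudocounts, DESeq2 1.42.0, limma 3.58.1 on log2 CPM values made from the deposited CPM, time as a line, no block and leaving out each pool.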

Additional observations from a re-analysis of the deposited data

Results flagged for a closer look

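The 12 h change at E14.5 differed from that at another stage, by the test of the interaction, for 543 genes that were higher and 1277 that were lower than at E11.5, and for 248 that were higher and 413 that were lower than at E16.5.

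Against E11.5 the differences that stood out were those of Rn7sk (-3.01 on the log2 scale), Gm42418 (-2.92) and Dlx6os1 (-2.50) on the lower side and of Pdgfra (2.12), Dmrta1 (1.55) and Epb41l4b (1.50) on the higher side. Rn7sk and Gm42418 had changes of 0.21 and 0.19 at E14.5, which did not pass, and rose at E11.5, where Gm42418 went from 4582, 3862 and 9482 cpm to 29686, 35413 and 67623 cpm. The part of ribosomal reads in the Rn7sk difference was not tested. Dlx6os1, an interneuron transcript, fell at E14.5 (10.2, 8.97 and 11.2 cpm to 5.85, 4.98 and 5.95 cpm) and rose at E11.5.

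Against E16.5 they were Gm8464 (-1.91), Gm4750 (-1.61) and Glis3 (-1.56) on the lower side and Pdgfra (2.41), Egfr (1.63) and Cspg4 (1.35) on the higher side. Gm8464 and Gm4750 rose at E16.5, from 4.30, 5.00 and 4.03 cpm to 12.7, 16.6 and 16.1 cpm for Gm8464, and may share reads with near-identical copies.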

How the results depend on the processing

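Without the replicate block, 12 h counts were 1156 rises and 1238 falls, 2 h counts 126 and 213, 4 h counts 852 and 487, 8 h counts 532 and 590, the counts against E11.5 177 higher and 610 lower, and those against E16.5 23 and 51. The pairing comes from the design, in which wells of a pool share cells. Genes that rose over 2-fold numbered 22 with a pseudocount of 2, 147 with over 10 covered Ts and 21 with over 2000. Those that fell numbered 29 with a pseudocount of 0.5, 14 with 2, 364 with over 10 covered Ts and 15 with over 2000. Library size alone gave 408 rises at 2 h. Without the libraries rich in Gm42418, an alternative chosen after seeing the data, 130 rose and 106 fell at 2 h and 1014 fell at 8 h. The causes were not tested.

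Leaving out 1 pool gave 1282 to 1566 rises and 1379 to 1790 falls at 12 h, 67 to 308 and 107 to 765 at 2 h, 533 to 1767 and 372 to 1595 at 4 h, and 530 to 916 and 637 to 867 at 8 h. Over 2-fold it gave 47 to 61 rises and 49 to 59 falls. Against E11.5 it gave 384 to 683 higher and 1010 to 1308 lower, and against E16.5 125 to 546 and 263 to 620.

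Of 628 alternative list medians 25, of 11 lists, differed in sign from the median with all pools. They include that of interferon and immune genes, at 0.042 with over 2000 covered Ts, and that of cortical projection neuron markers, from -0.17 to 0.0087 over the pools left out. The other 23 lay between -0.12 and 0.082. They belonged to the Notch, YAP and SRF, hypoxia, cyclin, neuronal cytoskeleton, interneuron, endothelial and mural lists and the study's neuron list, whose medians with all pools (-0.18 to 0.068), or the shifts, lay within the SD of the list's median over the 3 pools. Of 2462 alternative values of 167 named genes, 135 no longer passed and 6 changed sign. With time as a line these were Gm42418 (-0.55), Gm4750 (0.16), Mfsd2a (-0.12) and Rn7sk (-1.31). Over the pools left out, Mfsd2a ranged from -0.0086 to 0.048 and Neurod2 from -0.21 to 0.0050. None of these genes passed at 12 h with all pools.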

Other observations

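The lists not described above, like those described, are to be read against the 34.4% of all genes tested that passed in either direction at 12 h. Of 18 glycolysis genes 5 rose and 3 fell, of 14 heat shock genes 4 rose and 1 fell, of 16 oxidative stress genes 2 rose and 3 fell, of 11 hypoxia targets 3 rose and 3 fell, of 12 YAP and SRF targets 1 rose and 5 fell, of 13 BMP and Id genes 3 rose and 2 fell, of 17 pyrimidine and nucleoside genes 2 rose and 0 fell, of 6 interferon and immune genes 3 fell, of 5 snoRNA hosts 2 fell, of 11 cyclins and CDK inhibitors 2 rose and 2 fell, of 4 replication-dependent histones 2 rose and 1 fell, and of 6 genes of the mitochondrial genome 1 fell. Of 12 tested interneuron markers 2 rose, Dlx2 by 0.99 and Dlx1 by 0.63 on the log2 scale, and 4 fell, among them Dlx6os1 by 0.87 and Erbb4 by 0.44. Their median was -0.18, and 0.016 without pool B.

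Leaving out 1 pool moved several of these small counts by over 1.5 times. Without pool A, 3 glycolysis and 2 heat shock genes rose, 1 pyrimidine gene rose, 1 snoRNA host fell and 2 mitochondrial genes fell. Without pool B, 2 glycolysis and 2 heat shock genes rose, 1 interferon gene, 1 snoRNA host and 1 BMP or Id gene fell, and of the cyclins and CDK inhibitors 1 rose and 1 fell. Without pool C, 0 heat shock genes fell, and 1 cyclin or CDK inhibitor gene, 1 pyrimidine gene and 1 mitochondrial gene rose. Without the libraries rich in Gm42418, 2 heat shock and 3 mitochondrial genes fell and 2 YAP and SRF targets rose.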
